A study of Mus musculus with 12 samples.

Results

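The genes described here encode the machinery that degrades messenger RNA. They are 48 genes picked by symbol from the 24421 genes of a count table: 12 of deadenylation (10 Cnot genes, Pan2 and Pan3), 14 of decapping and decay from the 5′ end, 12 of the RNA exosome and its nucleases, 6 of nonsense-mediated decay, and 4 others (Xrn2, Dis3l2, Zfp36l1 and Zfp36l2). All 48 symbols were found, and all 48 passed the filter on low counts. They were picked by name and role, not by a threshold on these data, although earlier results of the data were known. The cells were E14 mouse embryonic stem cells grown on gelatin in medium with serum (FBS) and LIF for 2 weeks, either wild-type (WT) or Mettl3-KO, and either in that medium alone (FBS) or with 200 nM INK128, an inhibitor of the kinase mTOR that puts the cells in a paused state. Each of the 4 groups, WT FBS, WT paused, KO FBS and KO paused, had 3 libraries of polyA RNA with ERCC spike-in RNA. Mettl3 is the catalytic subunit of the enzyme that writes N6-methyladenosine (m6A) on mRNA. The labels name no clone of either genotype and do not say whether replicates came from separate cultures, so p-values measure the spread between these libraries, which may be technical.

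Most cytoplasmic mRNA decay starts with the poly(A) tail, which the Pan2-Pan3 and Ccr4-Not complexes shorten. The body of the message is then removed either from its 5′ end, after Dcp2 and its partners take off the cap and the nuclease Xrn1 follows, or from its 3′ end by the exosome, a ring of Exosc subunits that works through the nucleases Dis3 and Exosc10. Nonsense-mediated decay feeds messages with an early stop codon into the same enzymes, and m6A can mark messages for deadenylation through reader proteins of the Ythdf family.

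The libraries held 10339130 to 39034079 gene counts. Values below are CPM (a gene's counts as a share of its library, on a fixed total) scaled by the trimmed mean of M-values (TMM) of edgeR, so a log2 fold change is relative to the typical gene; a call is an adjusted p (Benjamini-Hochberg over 15281 tested genes) under 0.05 in edgeR's quasi-likelihood test. RNA came from an equal number of cells per sample, and scaling to the ERCC RNA gives a second, per-cell value. Gene counts per ERCC count ran from 72.4 to 74.6 in WT FBS, from 29.0 to 37.4 in WT paused, from 47.4 to 93.5 in KO FBS and from 36.5 to 40.3 in KO paused. On the per-cell scale the median of all genes shifted by -1.05 log2 units with pausing in WT and by -0.72 in KO, against -0.02 and 0.03 on the relative scale. In bulk RNA, fewer cells of a type and less RNA per cell cannot be told apart.

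WT FBS replicate 1 stood apart, with 2541 genes that differed more than 2-fold from its group's remaining mean, against 72 to 644 in every other library, so the counts for WT pausing, for genotype in FBS and for the difference between pausing effects are given with and without it. In the other groups, too, replicate 1 lay further from replicates 2 and 3 than these lay from each other. Over all groups, the chi-square per gene between 2 replicates was 40.4 to 151 for pairs with replicate 1. For replicates 2 and 3 it was 4.95 to 21.1. The cause was not tested. In FBS Mettl3 itself had 33.9 ± 3.17 CPM in WT and 27.2 ± 1.61 in KO, and in pausing 35.9 ± 2.85 and 30.1 ± 1.31 (SD, n = 3 each), which was lower in KO in FBS (log2 -0.32, adjusted p = 0.0134) and in pausing (-0.25, adjusted p = 0.0467); a count over the whole gene does not show which part was deleted. WT and KO libraries also differed outside Mettl3. The 7 tested genes of chromosome Y summed to 179 to 335 CPM of the library total in the 6 KO libraries and to 0.387 to 1.73 in the 6 WT libraries, and the 770 tested genes of chromosome 8 had a median log2 difference, KO minus WT, of -0.47 in FBS and -0.43 in pausing. For the 831 tested genes of chromosome 1 these medians were -0.28 and -0.44. ES cell markers (12 of 12 detected in every group) summed to 5112 to 5819 CPM in WT and 3082 to 3595 in KO when grown in FBS, and to 6064 to 6633 and 3621 to 3927 when paused. In FBS 7 of the 12 were called lower in KO and 2 higher, beside 29.4% and 28.4% of all tested genes. Tfcp2l1 averaged 1170 CPM in WT FBS and 183 in KO FBS, whereas Sall4 averaged 481 and 612. Trophoblast markers (8 of 8 detected) summed to 47.1 to 74.1 CPM and 193 to 249 in FBS (WT, KO), and to 32.2 to 48.2 and 55.9 to 63.9 in pausing. Extraembryonic endoderm markers (9 of 9 detected) summed to 221 to 281, 374 to 410, 126 to 144 and 294 to 307 CPM in the same order. These sums in FBS were mostly Sparc (mean 157 CPM for WT, 244 for KO) and Col4a1 (66.2 and 117). Gata6 (5.47 and 0.676) and Gata4 (4.75 and 0.547) went the other way. Of the 8 tested genes of this list, 3 were called higher and 3 lower for KO against WT when grown in FBS (median log2 -0.25). Between the paused groups 3 were higher and 2 lower. Neural markers (5 of 6 detected in WT paused, 6 of 6 elsewhere) summed to 46.1 to 89.0 CPM in WT FBS, 126 to 165 in WT paused and 69.0 to 81.1 over both KO groups. Among them Sox1 averaged 17.3 CPM in WT FBS and 123 in WT paused, whereas Six3 was at 0 in all WT paused libraries. Fibroblast markers never summed above 19.9 CPM, and Postn was at 0 in all WT paused libraries. The part of these differences in the results below was not tested.

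Promoters are shown for 4 genes that carry the main patterns: Dis3, Exosc2 and Exosc10, which fell with pausing in WT, and Zfp36l1, which rose. Each runs from 250 bases before to 50 bases after the RefSeq start on GRCm38.p6, 5′ to 3′ on the gene's strand; capitals mark matches, on either strand, to CGGAAG (ETS), GGGCGG (GC box), CCAAT (the box of that name), CACGTG (E-box), AAGATGG (YY1) or TGACGTCA (CRE), and a base could count for more than one match. Dis3 lies at chr14:99099721-99100020 (minus), Exosc2 at chr2:31670465-31670764 (plus), Exosc10 at chr4:148558169-148558468 (plus) and Zfp36l1 at chr12:80112964-80113263 (minus).
Dis3: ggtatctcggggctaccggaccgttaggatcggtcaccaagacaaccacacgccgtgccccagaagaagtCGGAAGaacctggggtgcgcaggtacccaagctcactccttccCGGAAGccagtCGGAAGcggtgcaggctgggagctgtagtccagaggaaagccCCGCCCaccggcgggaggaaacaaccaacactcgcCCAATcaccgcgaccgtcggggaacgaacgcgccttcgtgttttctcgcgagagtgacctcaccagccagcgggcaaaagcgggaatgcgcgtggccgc
Exosc2: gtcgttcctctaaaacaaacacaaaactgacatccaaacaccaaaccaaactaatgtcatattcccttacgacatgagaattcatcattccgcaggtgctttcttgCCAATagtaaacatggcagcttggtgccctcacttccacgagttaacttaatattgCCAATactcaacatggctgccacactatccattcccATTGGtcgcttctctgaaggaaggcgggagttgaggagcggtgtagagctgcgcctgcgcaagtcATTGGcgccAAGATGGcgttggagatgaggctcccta
Exosc10: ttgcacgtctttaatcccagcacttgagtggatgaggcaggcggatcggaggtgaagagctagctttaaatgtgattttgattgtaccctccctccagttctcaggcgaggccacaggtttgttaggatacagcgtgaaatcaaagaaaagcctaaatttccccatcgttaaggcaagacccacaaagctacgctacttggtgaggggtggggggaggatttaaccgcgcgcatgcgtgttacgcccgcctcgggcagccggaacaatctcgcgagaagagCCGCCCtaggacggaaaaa
Zfp36l1: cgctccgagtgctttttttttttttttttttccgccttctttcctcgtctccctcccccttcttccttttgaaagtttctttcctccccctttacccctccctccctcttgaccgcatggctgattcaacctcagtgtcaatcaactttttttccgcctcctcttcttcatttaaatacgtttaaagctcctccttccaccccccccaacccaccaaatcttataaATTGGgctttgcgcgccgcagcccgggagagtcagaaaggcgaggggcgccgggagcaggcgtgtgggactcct
The Dis3 promoter held 3 CGGAAG matches, 1 GC box and 1 CCAAT, whereas the Exosc2 promoter held 4 CCAAT matches and 1 AAGATGG and no GC box. Exosc10 had a single GC box and Zfp36l1 a single CCAAT. RefSeq promoters were matched for 39 of the 48 genes. Among them CGGAAG was present in 18 (46.2%), against 29.2% of 11379 promoters of tested genes and 17.2% of all 27025 promoters of this length. GGGCGG was present in 29 (74.4%), against 63.0% and 35.9%. CCAAT was in 14 (35.9%, against 38.2% and 37.9%), AAGATGG in 6 (15.4%, against 6.84% and 6.48%), CACGTG in 3 (7.69%, against 10.1% and 7.24%) and TGACGTCA in 0 (against 3.09% and 1.88%). These are counts of letters and show no binding. For the 39 genes the RefSeq start nearest the gene's start in GENCODE was used, and for the promoters compared the first start listed. The shares thus rest on starts chosen in different ways. The start used lay 22116 bases from the GENCODE start for Exosc3 and 2181 for Cnot6l.

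In WT cells, pausing lowered 8 of 12 exosome genes and 4 of 7 Lsm genes and raised few genes of the machinery. Of the 48, 15 fell (31.2%) and 4 rose (8.33%), where 20.2% of all tested genes fell and 18.0% rose (38.2% called). The exosome gave 8 of the 15 falls (8 of its 12 genes, none higher), decapping 5 of 14, deadenylation 1 of 12 and nonsense-mediated decay 1 of 6. Class medians were -0.41 for the exosome, -0.26 for decapping, -0.09 for deadenylation and -0.05 for nonsense-mediated decay, beside -0.02 for all genes. Without WT FBS replicate 1, 24 fell and 8 rose, beside 31.1% and 27.8% of all genes (58.9% called), and the exosome count became 10 of 12. Decapping then had 9 lower and 2 higher of 14, with a median of -0.49 beside -0.56 for the exosome. Leaving out WT FBS replicate 2, WT FBS replicate 3 or WT paused replicate 1 gave 9 falls and 2 rises in each case, beside 13.4% to 14.4% of all genes lower and 13.0% to 13.6% higher. The exosome count was then 4, 5 and 5 of 12, and a fit of these 2 groups alone called 3 of 12. Scaled per cell, 46 of the 48 fell and none rose, beside 68.8% and 1.15% of all genes (69.9% called).

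**Figure D1:**
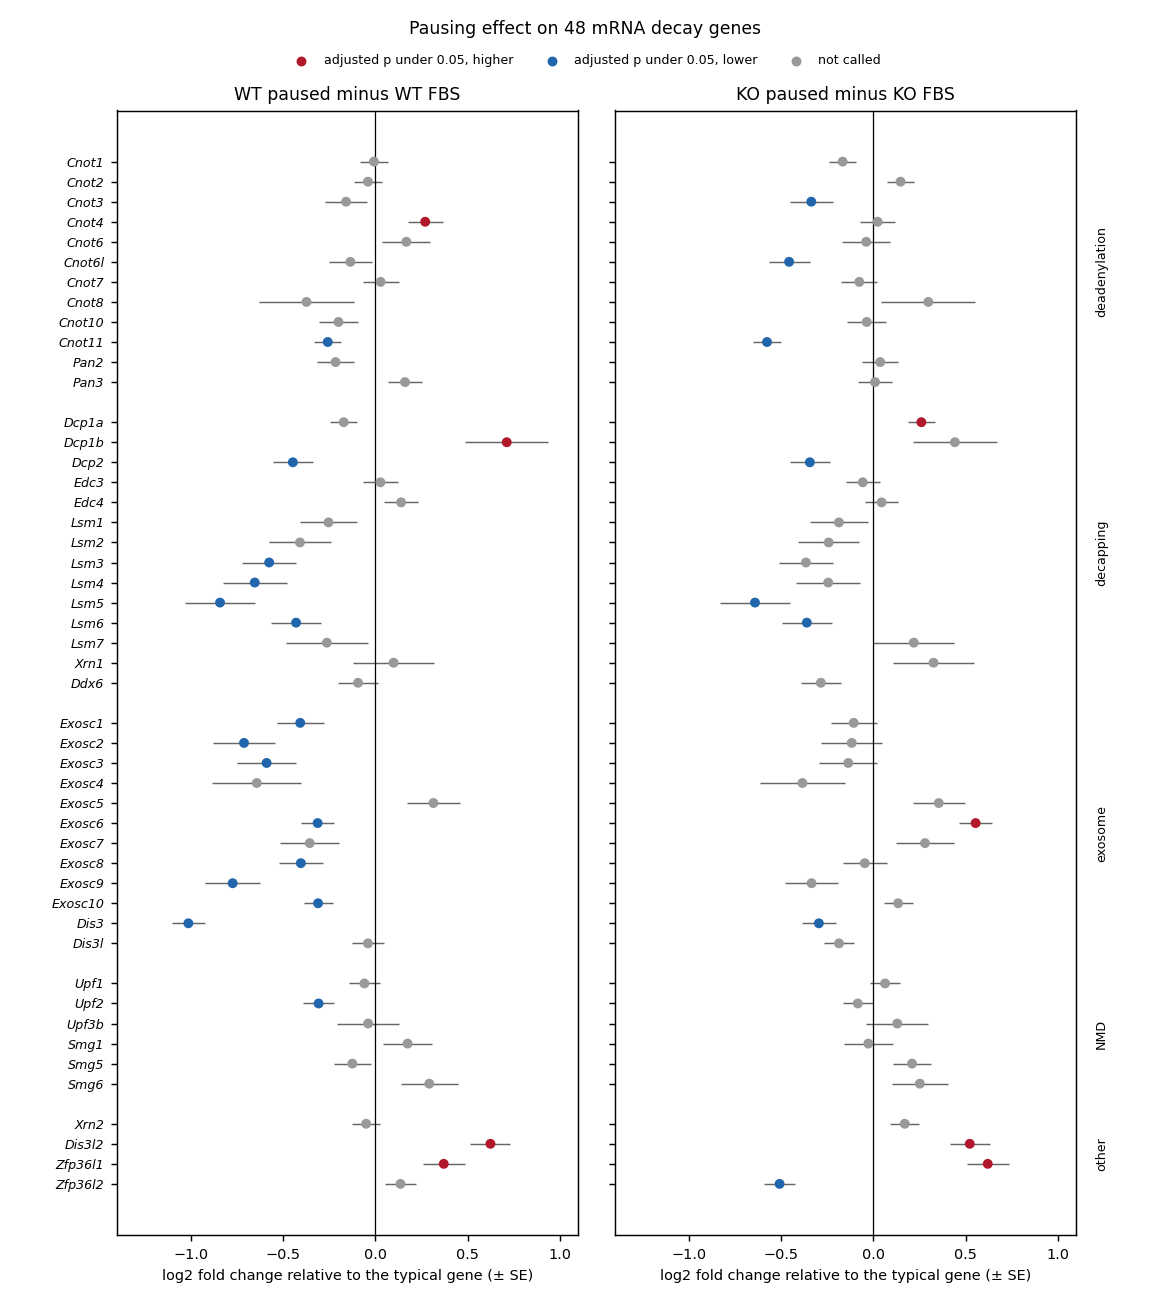
Log2 fold change of pausing (x axis, ± SE) for each of the 48 genes (y axis, grouped by class; NMD is nonsense-mediated decay) in WT (left) and KO (right); red and blue mark adjusted p under 0.05. In WT 8 of 12 exosome genes lie to the left as called, with Dis3 at -1.01, whereas in KO 1 exosome gene is called lower and Exosc6 is called higher at 0.55.

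Among the exosome genes, Dis3, the main catalytic nuclease, had the lowest p. It stood at 286, 361 and 356 CPM in the WT FBS libraries and at 167, 161 and 169 in WT paused. The groups did not overlap, and the change was -1.01 ± 0.09 (log2, SE; adjusted p = 1.19e-05). Exosc9, a subunit of the ring, had 26.1, 41.9 and 37.5 CPM in WT FBS and 18.6, 22.8 and 20.8 in WT paused (-0.77 ± 0.15, adjusted p = 0.00183). Exosc2, a cap subunit that binds RNA, had 52.7, 95.5 and 88.9 CPM against 50.05, 47.9 and 47.6. Its FBS replicate 1 lay just above the paused libraries, and the change was -0.71 ± 0.17 (adjusted p = 0.00624), or -0.94 without that library. Exosc10, the nuclear nuclease of the complex, moved less, from 107, 119 and 115 CPM to 90.5, 90.4 and 94.4 (-0.31 ± 0.08, adjusted p = 0.00879). The other 4 called exosome genes, Exosc1, Exosc3, Exosc6 and Exosc8, fell by 0.31 to 0.59. Single libraries decided some of these calls. Dropping FBS replicate 2 or 3 ended those of Exosc3 (-0.44 and -0.51), Exosc1 (-0.27 and -0.39) and Exosc8 (-0.32 and -0.36). Dropping paused replicate 1 ended those of Exosc1 (-0.37), Exosc8 (-0.34) and Exosc6 (-0.30). The Exosc1 call also ended on dropping paused replicate 2 (-0.42), and the Exosc6 call on dropping FBS replicate 2 (-0.26) or paused replicate 3 (-0.28). Exosc4 (-0.64) and Exosc7 (-0.36) were not called, but were called lower without WT FBS replicate 1, at -0.93 and -0.57. Exosc5 (0.31), of the ring, and Dis3l (-0.04), the cytoplasmic relative of Dis3, were not called. Exosc5 was the only exosome gene with a positive value. Without WT paused replicate 1, 1 exosome gene was called higher and 5 lower. With the replicate number fitted as a block, 1 was called higher and 9 lower.

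**Figure D2:**
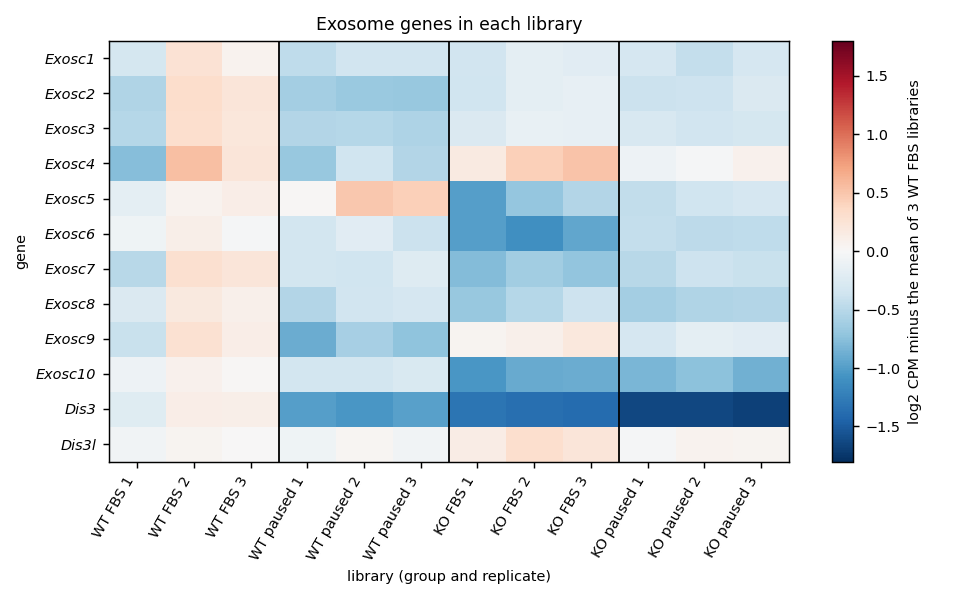
Log2 CPM of the 12 exosome genes (rows) in the 12 libraries (columns, by group and replicate) minus each gene's mean over the 3 WT FBS libraries. Dis3 is low in all 9 other libraries, and WT FBS replicate 1 lies below replicates 2 and 3 in every row.

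The ring that Lsm1 to Lsm7 form together binds shortened tails and stimulates decapping. Decapping itself was not measured, so lower Lsm levels do not show less of it. Lsm5 had 27.7, 54.3 and 49.4 CPM in WT FBS and 22.8, 22.9 and 28.0 in WT paused (-0.84 ± 0.19, adjusted p = 0.00505). The highest paused library lay above the lowest FBS library, which was replicate 1; without it the change was -1.07. Lsm3 (-0.58), Lsm4 (-0.65) and Lsm6 (-0.43) were also lower, and Lsm6 overlapped between groups. Lsm1, Lsm2 and Lsm7 were not called. The Lsm4 call ended on dropping FBS replicate 3 (-0.52) or paused replicate 1 (-0.57), and the Lsm6 call on dropping FBS replicate 2 (-0.30) or 3 (-0.37) or paused replicate 1 (-0.41) or 2 (-0.40). Dcp2, the decapping enzyme, fell by 0.45 ± 0.11 (adjusted p = 0.00755), from 189.7, 258 and 264 CPM to 181, 166 and 176. Its activator Dcp1b moved the other way. It had 8.38, 4.33 and 5.24 CPM in WT FBS and 8.86, 10.4 and 9.08 in WT paused (0.71 ± 0.23, adjusted p = 0.0263), and its counts were the lowest of those named, at 58 to 201 per library. Leaving out any library of the comparison but WT FBS replicate 1 lost this call, at 0.52 to 0.75, and leaving out that one gave 0.97. The paralogue Dcp1a, which was far more abundant, had -0.17 and was not called.

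Few deadenylation and nonsense-mediated decay genes passed the test in WT with all 12 libraries. Without WT FBS replicate 1, 4 of 12 deadenylation genes were lower and 2 higher. Of 6 nonsense-mediated decay genes 1 was then lower and 2 were higher, beside 31.1% and 27.8% of all genes. Cnot4, a ubiquitin ligase tied to the Ccr4-Not complex, had 61.5, 59.6 and 62.4 CPM in FBS and 82.6, 65.3 and 73.5 in pausing (0.27 ± 0.10, adjusted p = 0.0401), a call that ended on dropping FBS replicate 2 (0.25) or 3 (0.29) or paused replicate 1 (0.18) or 3 (0.26). Cnot11, a subunit of Ccr4-Not with no catalytic role, fell by 0.26 ± 0.07 (adjusted p = 0.0164), a call that ended on dropping FBS replicate 2 (-0.23) or 3 (-0.24) or paused replicate 1 (-0.24). Upf2, which bridges Upf1 to the exon junction complex, fell by 0.31 ± 0.08 (adjusted p = 0.0114), from 118, 119 and 108 CPM to 94.4, 87.5 and 96.7. Cnot1, the scaffold of Ccr4-Not and the most abundant of the 48 by CPM in WT, had 900.3 ± 21.3 CPM in FBS and 896 ± 37.3 in pausing (-0.01).

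Outside those classes, Dis3l2, a nuclease that degrades uridylated RNA without the exosome, had the clearest rise. It went from 30.7, 24.3 and 24.2 CPM in WT FBS to 42.0, 39.5 and 39.8 in WT paused (0.62 ± 0.11, adjusted p = 0.001). Zfp36l1, which brings the deadenylase to AU-rich elements, rose from 89.8, 126 and 127 CPM to 155, 143 and 146 (0.37 ± 0.11, adjusted p = 0.0227), and 55.9% of its exon bases are overlapped by a long noncoding RNA, Gm26669, on the opposite strand. The Zfp36l1 call was lost without WT paused replicate 1 (0.34) or 3 (0.37). The libraries of both genes did not overlap between groups. The paralogue Zfp36l2 (0.14) was not called. Scaled per cell, all 4 risers had negative values: Dis3l2 -0.41, Zfp36l1 -0.67, Dcp1b -0.33 and Cnot4 -0.79.

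In KO cells, pausing was called for 12 of the 48 genes. Here 8 of 48 fell (16.7%) and 4 rose (8.33%), where 19.4% of all tested genes fell and 23.3% rose (42.7% called). The numbers in WT and KO depend on the fit: with only the 2 groups compared, 30 were called in KO and 5 in WT, beside 62.5% and 20.4% of all genes. The exosome had 1 lower and 1 higher gene of 12, decapping 3 lower and 1 higher of 14, deadenylation 3 lower of 12, and nonsense-mediated decay none of 6. The exosome median was -0.11, beside 0.03 for all genes. Cnot11 had the lowest p, going from 72.3, 68.9 and 72.2 CPM in KO FBS to 49.5, 46.3 and 47.3 in KO paused (-0.58 ± 0.07, adjusted p = 6.62e-05). Its 49 nearest tested genes on chromosome 1 had a median of -0.62 in the same comparison, against -0.11 in WT, so the change of Cnot11 and that of its neighbourhood cannot be told apart. Cnot6l, a catalytic deadenylase, fell by 0.46 ± 0.11 (adjusted p = 0.00554), from 63.1, 53.7 and 53.1 CPM to 42.2, 41.1 and 40.4. Cnot3, a regulatory subunit, fell by 0.34 ± 0.12 (adjusted p = 0.0336). Lsm5 (-0.64 ± 0.19, adjusted p = 0.0155), Dcp2 (-0.34), Lsm6 (-0.36) and Dis3 (-0.30) fell as well. The calls of Cnot3 (-0.32 to -0.36) and Lsm6 (-0.33 to -0.38) were lost without any of the 6 libraries, that of Dcp2 without any but KO FBS replicate 2 (-0.32 to -0.35), that of Dis3 without any but KO FBS replicate 3 (-0.28 to -0.30) and that of Lsm5 without KO paused replicate 2 (-0.60). Scaled per cell, 30 of the 48 fell and none rose, beside 45.7% and 2.45% of all genes (48.2% called).

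Zfp36l2 was lower with pausing in KO, at 65.5, 68.7 and 69.9 CPM in FBS and 47.3, 49.7 and 46.5 in pausing (-0.51 ± 0.08, adjusted p = 0.000348). Its paralogue Zfp36l1 rose in the same libraries, from 61.2, 62.3 and 64.3 CPM to 93.2, 97.4 and 97.9 (0.62 ± 0.11, adjusted p = 0.000933). The 2 genes thus passed the test in opposite directions. Dis3l2 rose by 0.52 ± 0.11 (adjusted p = 0.00188). Dcp1a rose from 66.9, 64.4 and 68.5 CPM to 78.8, 79.3 and 81.1 (0.26 ± 0.07, adjusted p = 0.0119), with no overlap between groups; the call was lost without KO FBS replicate 2 (0.24). Exosc6, a ring subunit, rose from 21.0, 19.4 and 22.0 CPM to 31.2, 30.1 and 30.4 (0.55 ± 0.09, adjusted p = 0.000348). All of the exon bases of Exosc6 lie inside exons of Aars on the same strand, so its counts are uncertain. On the per-cell scale the 4 rises were again negative, at -0.13 for Zfp36l1, -0.24 for Dis3l2, -0.49 for Dcp1a and -0.19 for Exosc6.

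The pausing comparisons in WT and in KO share no library. Of the genes that fell, Cnot11, Dcp2, Dis3, Lsm5 and Lsm6 did so in both, which is 33.3% of the 15 in WT and 62.5% of the 8 in KO. Over all tested genes, those that fell in both were 43.4% of those lower in WT and 45.2% of those lower in KO. Dis3l2 and Zfp36l1 rose in both, out of 4 that rose in each. Exosc6 was called lower in WT and higher in KO.

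**Figure D3:**
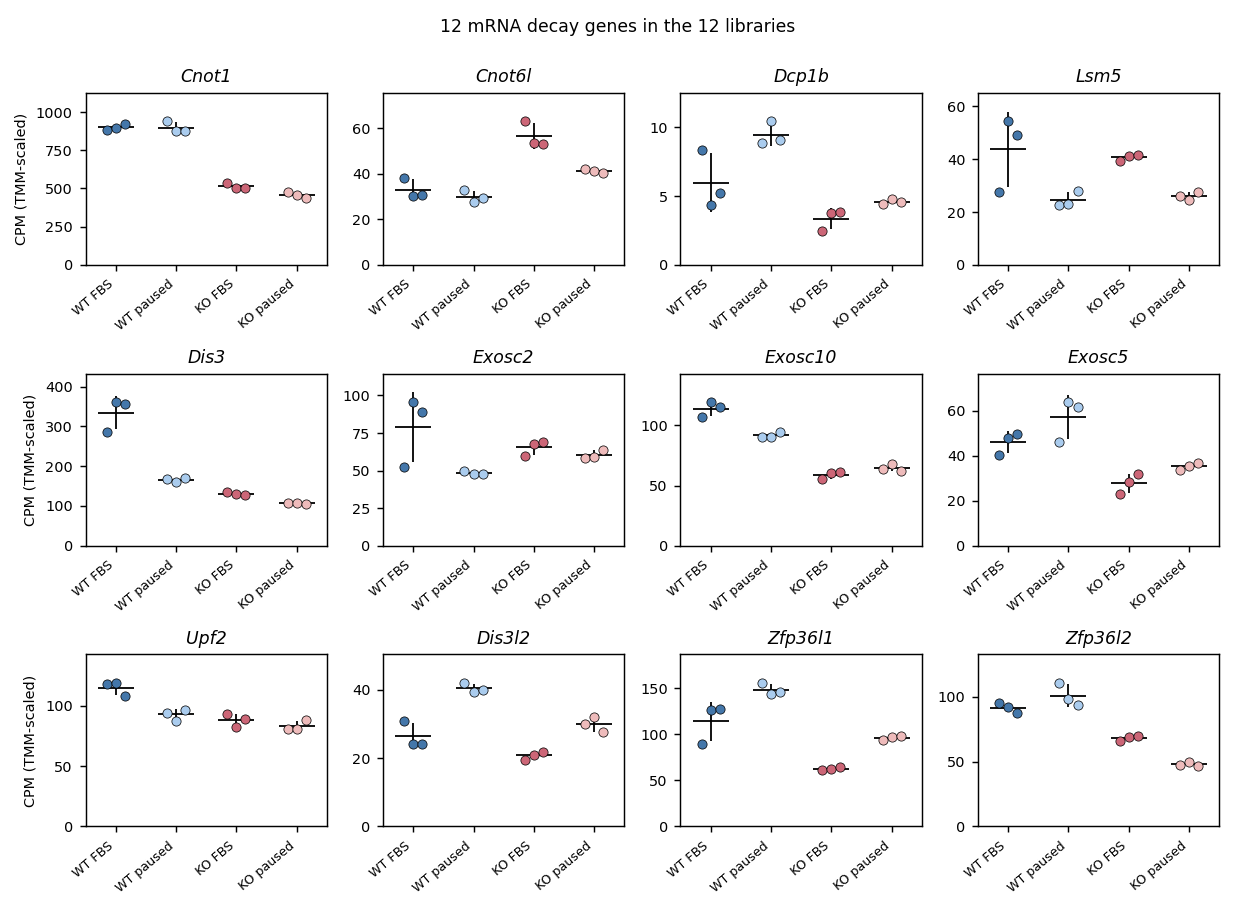
CPM (y axis, from 0) of 12 of the genes in each library, by group on the x axis; points are libraries, dashes and bars are the mean ± SD of 3. Dis3 falls from 334 to 166 CPM between WT FBS and WT paused, whereas Zfp36l2 is near 100 in both WT groups and falls from 68.0 to 47.8 in KO.

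The difference between the pausing effects was tested directly. It was called for 5 of the 48 genes (4 higher in KO, 8.33%, and 1 lower, 2.08%), where 9.61% and 8.26% of all tested genes were called (17.9% in all). Exosc6 differed by 0.87 ± 0.13 (adjusted p = 0.000725), Dis3 by 0.72 ± 0.13 (adjusted p = 0.00272), Exosc10 by 0.44 ± 0.11 (adjusted p = 0.0166) and Dcp1a by 0.43 ± 0.10 (adjusted p = 0.013). For Zfp36l2 the difference was -0.65 ± 0.12 (adjusted p = 0.00277). Dis3 thus fell by 1.01 in WT and by 0.30 in KO, from a KO FBS level that was already 130.2 CPM against 334 in WT FBS. Exosc10 had 55.1, 60.6 and 61.3 CPM in KO FBS and 64.0, 68.1 and 62.2 in KO paused. The exosome median of this difference was 0.44, beside 0.09 over all genes. Without WT FBS replicate 1 the difference was called for 24 genes, 19 higher and 5 lower. Among these, 10 of the 12 exosome genes and 7 of the 14 decapping genes were higher. The background was then 24.3% and 17.1% (41.3% called). The call for Exosc10 was lost without KO paused replicate 2 (0.41). Per cell, the difference was called for none of the 48, beside 3.04% of all genes called higher and 1.66% lower (4.7% called); at an unadjusted p under 0.05 in edgeR, 4 were higher and none lower. The per-cell values for the 5 genes above were 1.14, 1.00, 0.71, 0.71 and -0.36.

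Mettl3-KO cells in FBS had less of most of this machinery than WT cells, relative to the typical gene. Of the 48, 26 were lower (54.2%) and 2 higher (4.17%), where 29.4% of all tested genes were lower and 28.4% higher (57.8% called). The lower genes were 6 of 12 in deadenylation, 6 of 14 in decapping, 6 of 12 in the exosome, 4 of 6 in nonsense-mediated decay and all 4 of the others. Medians ran from -0.40 in the exosome to -0.23 in decapping, beside -0.04 for all genes. Without WT FBS replicate 1, 35 were lower and 3 higher, where the background was 34.3% each way (68.6% called). Per cell, 4 were lower and 1 higher, beside 9.81% and 19.1% of all genes (28.9% called).

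Dis3 again had the lowest p, at 134, 129.6 and 127 CPM in KO FBS against 286, 361 and 356 in WT FBS (-1.36 ± 0.09, adjusted p = 1.82e-07). Exosc10 had 55.1, 60.6 and 61.3 CPM against 107, 119 and 115 (-0.95 ± 0.08, adjusted p = 8.89e-07). Both nucleases of the nuclear exosome were therefore below every WT library. Exosc6 (-1.01 ± 0.09, adjusted p = 1.43e-06), Exosc5, Exosc7 and Exosc8 were lower too. Cnot1 had 534, 505 and 504 CPM against 881, 897 and 923 (-0.81 ± 0.08, adjusted p = 2.23e-06). Among the smaller classes, Smg5, which takes part in turning over phosphorylated Upf1, was lower by 0.61, Upf3b by 0.47, Upf2 by 0.38 and the helicase Upf1 by 0.30. Zfp36l1 (-0.87) and Zfp36l2 (-0.43) were both lower, as were Dis3l2 (-0.34) and Xrn2, the nuclear nuclease that works from the 5′ end (-0.38). Calls lost without 1 library were those of Dis3l2 without KO FBS replicate 1 (-0.29) and Dcp1b (-0.76) without the same library (-0.60). Lsm1 (-0.26 to -0.46), Lsm6 (-0.26 to -0.39) and Upf3b (-0.40 to -0.51) lost theirs without any library of the comparison but WT FBS replicate 1.

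The 2 genes higher in KO were a deadenylase and a nuclease. Cnot6l had 63.1, 53.7 and 53.1 CPM in KO FBS against 38.2, 30.1 and 30.6 in WT FBS (0.79 ± 0.11, adjusted p = 7.47e-05). Dis3l had 32.4, 36.6 and 34.5 CPM against 28.4, 30.8 and 29.8 (0.21 ± 0.08, adjusted p = 0.0416). The Cnot6l groups were well apart, whereas the Dis3l groups were separated by a narrow gap, and the Dis3l call ended on dropping replicate 2 (0.17) or 3 (0.21) of KO or replicate 3 of WT (0.22).

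Between the paused groups, 18 genes were lower in KO (37.5%) and 2 higher (4.17%), beside 23.9% and 27.9% of all genes (51.8% called). The deadenylation class held 7 of the 18, decapping 4, the exosome 3, nonsense-mediated decay 1 and the others 3. Zfp36l2 had 47.3, 49.7 and 46.5 CPM in KO paused against 111, 98.1 and 93.6 in WT paused (-1.07 ± 0.08, adjusted p = 6.01e-07). Cnot1 had 478, 456 and 441 CPM against 939, 876 and 873 (-0.97 ± 0.08, adjusted p = 6.88e-07). Cnot11 differed by -0.73 ± 0.07 (adjusted p = 5.74e-06) and Edc4, a scaffold of decapping, by -0.72 ± 0.09 (adjusted p = 3.47e-05). Cnot6l was again higher (0.47 ± 0.11, adjusted p = 0.00436), with 42.2, 41.1 and 40.4 CPM against 32.9, 27.6 and 29.2. Exosc9 was the other gene higher in KO, at 28.0, 30.5 and 29.9 CPM against 18.6, 22.8 and 20.8 (0.51 ± 0.15, adjusted p = 0.012), a call lost without WT paused replicate 1 (0.44). Ddx6 (-0.31), Pan3, a subunit of the other deadenylase (-0.28), and Smg5 (-0.28) each lost the call without at least 4 of the 6 libraries, with values of -0.21 to -0.32. Per cell none of the 48 was lower (1 at an unadjusted p under 0.05 in edgeR) and 4 were higher, beside 5.62% and 27.1% of all genes (32.8% called); Cnot1 then had -0.58 and Zfp36l2 -0.68, and neither was called.

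The genotype comparisons in FBS and in pausing share no library. Cnot1, Cnot3, Cnot7, Cnot10, Cnot11, Dcp1b, Dis3, Dis3l2, Edc4, Exosc5, Exosc10, Lsm4, Smg5, Zfp36l1 and Zfp36l2 were lower in KO in both. These 15 genes are 57.7% of the 26 lower in FBS and 83.3% of the 18 lower in pausing, and Cnot6l was higher in both. Over all tested genes, those lower in both media were 58.1% of the lower genes in FBS and 71.6% in pausing.

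Position on the chromosome moved with the genotype difference. The genes Cnot1, Cnot7, Edc4, Lsm1, Lsm4, Lsm6, Exosc6 and Upf1 lie on chromosome 8, and all 8 were lower in KO in FBS, with a median of -0.52; in pausing 4 of them were lower. On the other chromosomes 18 of 40 (45.0%) were lower in FBS and 14 of 40 (35.0%) in pausing. Over all tested genes 29.4% were lower in FBS and 23.9% in pausing. The 770 tested genes of chromosome 8 had medians of -0.47 and -0.43, and the share of them called lower was not counted. The 8 calls alone thus do not set these genes apart from their chromosome. Taken against the median of its 49 nearest tested genes, Cnot1 differed by -0.42 in FBS and -0.71 in pausing, Edc4 by -0.23 and -0.39, Lsm4 by -0.32 and -0.20, Lsm6 by 0.14 and 0.14, and Upf1 by 0.39 and 0.15. Cnot7 lay closest to its neighbours (-0.05 and -0.07), Lsm1 differed by -0.23 and -0.16, and Exosc6 changed sign (-0.79 and 0.36). For Cnot7, Lsm6 and Upf1 the lower level and that of the neighbourhood cannot be told apart. The same holds for Dis3l2, on chromosome 1, which differed from its neighbours by 0.07 and -0.02. Cnot11, also on chromosome 1, differed from its neighbours by -0.48 and -0.30, and their own median in pausing was -0.43. Dis3 (-1.17 and -0.44), Exosc10 (-0.86 and -0.47), Zfp36l1 (-0.96 and -0.71), Zfp36l2 (-0.50 and -1.05) and Cnot6l (0.67 and 0.46) kept differences of the same sign as before against theirs.

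**Figure D4:**
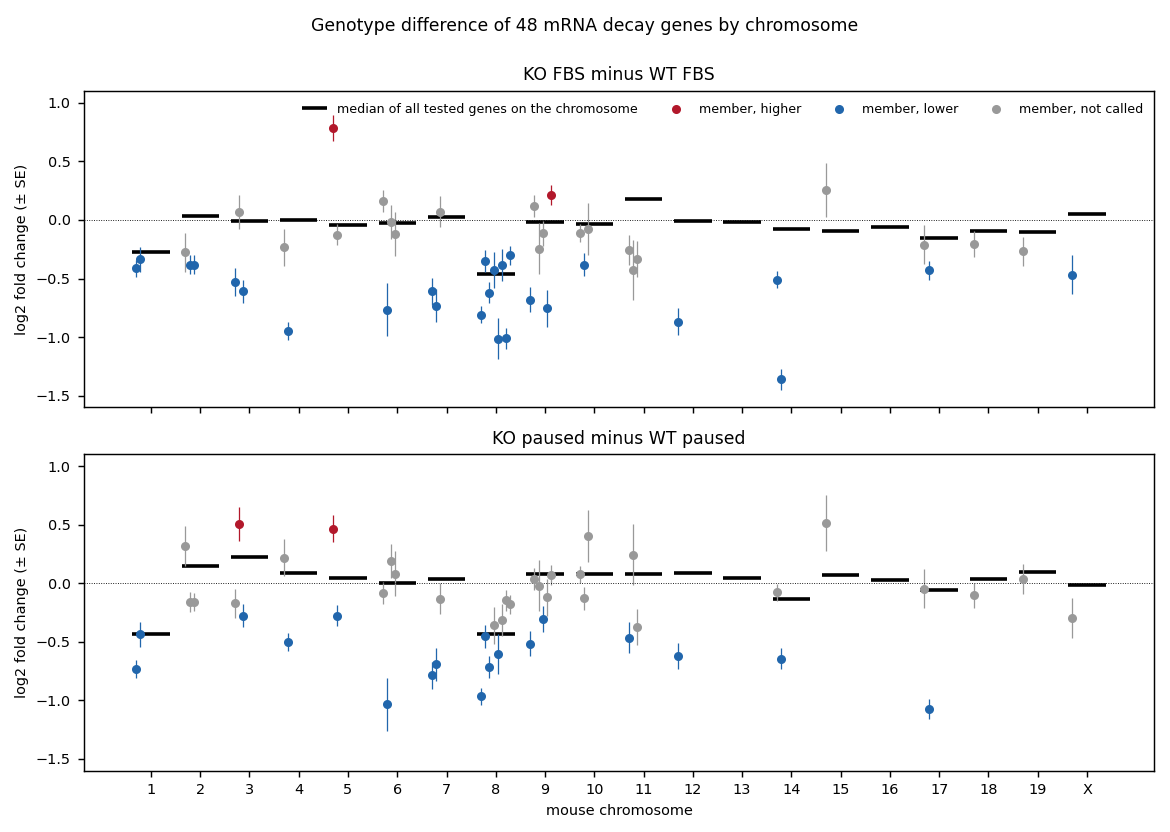
Log2 difference KO minus WT (y axis, ± SE) of the 48 genes by chromosome (x axis) in FBS (top) and pausing (bottom); bars are the medians of all tested genes on each chromosome. The chromosome 8 bar lies at -0.47 and -0.43, and all 8 genes there lie below 0 in both panels.

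Paralogous pairs were compared as log2 ratios of counts within a library, which need no scaling. Each effect was tested over both levels of the other factor by an exact two-sided permutation test (400 arrangements, smallest p 0.005), with adjustment over 12 tests, of which 7 passed. None of the 7 passed when libraries were paired by replicate number (adjusted p = 0.075 to 0.161, exact sign-flip test); 6 pairs allow no p below 0.0312 before adjustment. The ratio of the deadenylases Cnot6 to Cnot6l was 2.14 ± 0.51 in WT FBS, 2.47 ± 0.11 in WT paused, 1.13 ± 0.06 in KO FBS and 1.54 ± 0.03 in KO paused (SD, n = 3). It was lower in KO by 0.97 (exact p = 0.005, adjusted 0.03), with no overlap between genotypes in either medium, and higher with pausing by 0.37 (exact p = 0.025, adjusted 0.0429). Dis3 over Dis3l went from 3.49 ± 0.13 in WT FBS to 2.52 ± 0.10 in WT paused and stood at 1.92 ± 0.11 and 1.81 ± 0.06 in KO. It was lower in KO by 1.14 (exact p = 0.005, adjusted 0.03) and lower with pausing by 0.54 (exact p = 0.01, adjusted 0.03), with overlapping KO libraries. The pausing effects did not pass without some single libraries: for Cnot6 over Cnot6l without any but WT FBS replicates and KO FBS replicates 2 and 3 (0.34 to 0.40), and for Dis3 over Dis3l on dropping replicate 1 of KO FBS or replicates 2 or 3 of KO paused (-0.51 to -0.54).

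Zfp36l1 over Zfp36l2 rose with pausing by 0.69 (exact p = 0.01, adjusted 0.03), from -0.12 ± 0.02 to 1.01 ± 0.06 in KO and from 0.30 ± 0.33 to 0.56 ± 0.07 in WT, where libraries overlapped. Its mean genotype difference was 0.01 (exact p = 0.99), made of -0.42 in FBS and 0.45 in pausing. Dcp1a over Dcp1b was lower with pausing by 0.55 and higher in KO by 0.62 (exact p = 0.025, adjusted 0.0429, each). The pausing change was made of -0.88 in WT and -0.22 in KO, where libraries overlapped. The genotype difference was made of 0.29 in FBS, where libraries overlapped, and 0.96 in pausing. Leaving out a WT paused library ended the call for Zfp36l1 over Zfp36l2 (0.67 to 0.71), and leaving out any 1 of 8 of the 12 libraries did so for Dcp1a over Dcp1b (-0.45 to -0.58 with pausing, 0.52 to 0.65 in KO). Cnot7 over Cnot8 and Xrn1 over Xrn2 were not called for either effect. Both include genes whose WT FBS replicate 1 lay far from the others, Cnot8 at 144 CPM against 63.7 and 58.2 and Xrn1 at 115 against 55.7 and 61.4. Without that library all 4 of these effects passed the test: Cnot7 over Cnot8 at -0.30 with pausing and -0.63 in KO, and Xrn1 over Xrn2 at 0.35 and 0.34.

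**Figure D5:**
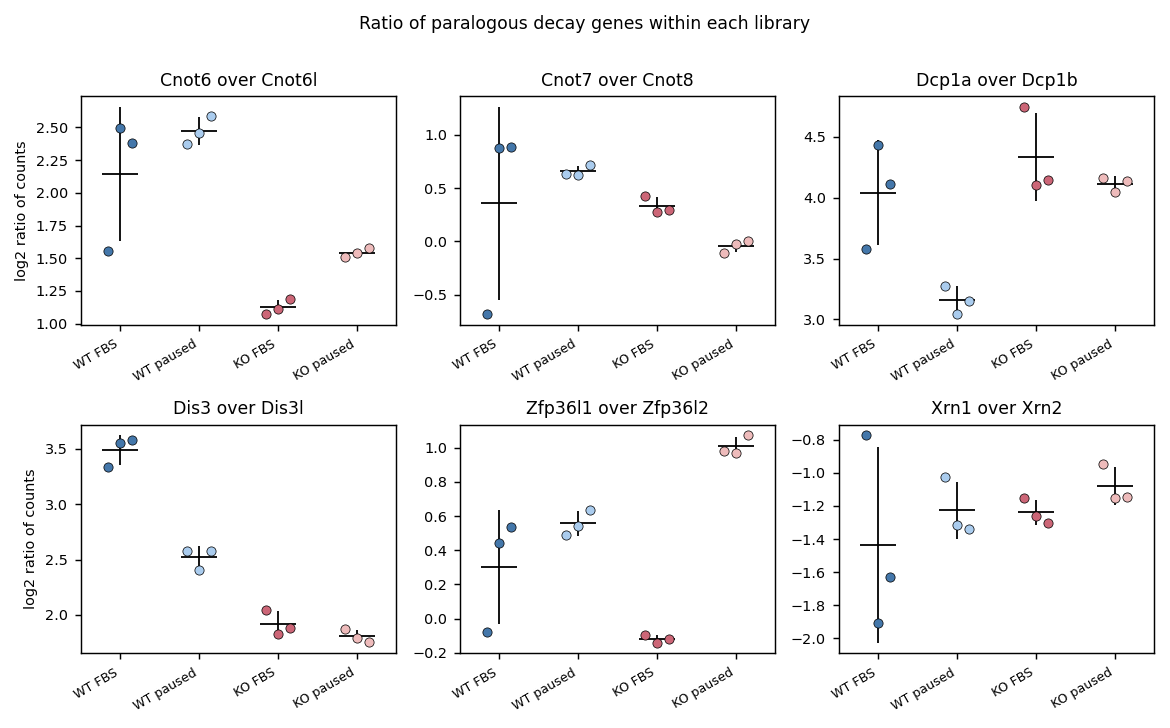
Log2 ratio of counts (y axis) for 6 pairs of paralogous genes in each library, by group on the x axis; points are libraries, dashes and bars the mean ± SD of 3. Dis3 over Dis3l falls from 3.49 in WT FBS to 1.81 in KO paused, and WT FBS replicate 1 lies apart in the Cnot7 over Cnot8 and Xrn1 over Xrn2 panels.

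Levels between genes were compared as CPM per kilobase of annotated exon (GENCODE vM21, mean ± SD of 3 WT FBS libraries). Lsm4 stood at 100.5 ± 27.1, Lsm5 at 55.3 ± 17.9, Cnot1 at 52.4 ± 1.24, Xrn2 at 49.9 ± 2.46, Upf1 at 49.6 ± 1.70, Ddx6, a helicase that represses and decaps messages, at 47.3 ± 7.62, and Dis3 at 43.1 ± 5.40. From Lsm5 down these neighbours lay within their spreads of each other. Without WT FBS replicate 1 the means were 116 for Lsm4, 65.5 for Lsm5, 53.0 for Cnot1, 51.7 for Ddx6, 50.1 for Xrn2, 49.8 for Upf1 and 46.2 for Dis3, and at the low end 0.755 for Dcp1b and 3.15 for Xrn1. At the low end were Dcp1b at 0.944 ± 0.335, Dis3l2 at 2.96 ± 0.422, Cnot6l at 3.20 ± 0.442 and Xrn1 at 4.17 ± 1.77. In KO paused Dis3 had 13.7 ± 0.219 and Exosc10 18.0 ± 0.84 CPM per kilobase. For 20 of the 48 genes an exon overlaps that of another gene, and the strand setting of the counting is not given in the sources used here.

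Other genes of the pathway were taken from lists of cofactors, with 13, 11, 14 and 13 tested genes. Over all tested genes 20.2% fell and 18.0% rose in WT pausing, and 19.4% fell and 23.3% rose in KO pausing. Per cell these shares were 68.8% and 1.15% in WT and 45.7% and 2.45% in KO. In WT pausing 4 deadenylation cofactors fell and 1 rose; Pabpc4 (-1.05 ± 0.11, adjusted p = 4.61e-05) and Pabpc1 (-0.75 ± 0.14, adjusted p = 0.00138), which coat the poly(A) tail, were among those that fell. Both also fell in KO pausing (-0.50 and -0.85), where 3 fell and 2 rose. Decapping and 5′ decay cofactors had 3 lower and 1 higher in WT pausing, with Dcps, which clears the cap after decay, at -0.56, and 1 each way in KO. Exosome cofactors had 6 lower and none higher in WT, with Rbm7 (-0.45) and the helicase Skiv2l2 (-0.34), which feeds the nuclear exosome, and none lower and 2 higher in KO, Skiv2l (0.62) and Papd7 (0.55). The difference of the pausing effects was called for Skiv2l2 (0.39) and Rbm7 (0.43). For the lists in the order above it was called higher for 2, 2, 2 and 1 genes and lower for none. Over all genes 9.61% were higher and 8.26% lower. Without WT FBS replicate 1, 5, 5, 6 and 6 were higher and 2, 1, 0 and 2 lower, beside 24.3% and 17.1%. Per cell the difference was called for none of these genes, beside 3.04% and 1.66%. Nonsense-mediated decay and exon junction factors had 6 lower in WT, with the release factors Etf1 (-0.91) and Gspt1 (-0.70), and 4 lower and 2 higher in KO. Per cell, 12 of 13, 9 of 11, 14 of 14 and 12 of 13 of these lists fell in WT pausing and 10, 4, 8 and 9 in KO pausing, and none rose; Skiv2l and Papd7 then had -0.16 and -0.21 in KO. Without WT FBS replicate 1 the WT counts were 10 lower and 2 higher, 3 and 3, 8 and 0, and 8 and 1, beside 31.1% and 27.8% of all genes.

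Between genotypes in FBS the same lists had 6 lower and 3 higher, 6 and 2, 4 and 1, and 4 and 3 genes, beside 29.4% and 28.4% of all genes. They had, without WT FBS replicate 1, 6 and 4, 7 and 3, 9 and 1, and 8 and 3, beside 34.3% each way. Per cell the counts were 4 lower and 1 higher, 1 and 1, 0 and 1, and 1 and 2, beside 9.81% and 19.1%. Rqcd1, the table's name for Cnot9, was lower in KO in FBS (-0.96) and in pausing (-0.69). Magohb, an exon junction protein, was higher in KO by 2.90 and 3.16, Smg8, which restrains Smg1, by 1.39 and 0.85, and Pelo, which rescues stalled ribosomes, by 1.60 and 1.67. The deadenylase-related Ccrn4l (nocturnin) was higher by 1.93 and 1.76. Upf3a (-1.09 and -0.36), Pnrc2 (-0.99 and -0.32) and Skiv2l (-0.84 and -0.45) were lower in both media.

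Genes listed as sequence-specific recruiters or as m6A readers moved as follows. Not every listed gene brings decay enzymes to a target. The recruiter list includes Elavl1, Zcchc6 and Zcchc11, and the reader list includes Igf2bp1, Igf2bp2 and Igf2bp3. Of 15 listed recruiters, 3 rose and none fell in WT pausing, beside 18.0% and 20.2% of all tested genes. In KO pausing 6 rose and none fell, beside 23.3% and 19.4%. Without WT FBS replicate 1, 9 rose and 2 fell in WT, beside 27.8% and 31.1%. Tnrc6c and Tnrc6b, which link microRNA-bound Argonaute to deadenylases, rose in WT (1.02 and 0.64, or 1.27 and 0.99 without that library) and in KO (1.00 and 1.00). Ago1 rose in WT by 0.68. Per cell none of the 15 rose in either genotype, beside 1.15% of all genes in WT and 2.45% in KO. On that scale 12 fell in WT and 5 in KO, beside 68.8% and 45.7% of all genes. Of 8 m6A readers, 5 were higher and 1 lower in KO in FBS (6 and 2 without WT FBS replicate 1), beside 28.4% and 29.4% of all genes, and per cell 2 were higher and none lower, beside 19.1% and 9.81%. Ythdf2, the reader that recruits Ccr4-Not, was higher in KO by 1.37 ± 0.14 in FBS (adjusted p = 4.87e-06) and by 1.09 ± 0.14 in pausing (adjusted p = 3.87e-05), and per cell by 1.48 and 1.47.

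Transcripts known as substrates were counted from 2 lists. Over all tested genes 20.2% fell and 18.0% rose in WT pausing (31.1% and 27.8% without WT FBS replicate 1). In KO pausing 19.4% fell and 23.3% rose. Of 11 transcripts sensitive to nonsense-mediated decay, 9 were lower and 1 higher in KO than in WT in FBS, with a median of -0.87, and 5 were lower and none higher between the paused groups, beside 29.4% and 23.9% of all genes lower. The FBS counts without WT FBS replicate 1 were 9 lower and 2 higher, beside 34.3% of all genes each way. Per cell 5 were lower and none higher in FBS, and none was called either way between the paused groups (1 lower at an unadjusted p under 0.05 in edgeR). Over all genes 9.81% were lower and 19.1% higher per cell in FBS, and 5.62% and 27.1% between the paused groups. In WT pausing 6 fell and 1 rose (6 and 2 without WT FBS replicate 1), with Atf4 at -0.90, Snhg8 at -0.72 and Gadd45a, which rose, at 0.55 (0.36 without that library). In KO pausing 1 fell and 3 rose, and Snhg8 (0.71) and Gadd45a (1.18) were among the latter. The difference of pausing effects was called for Snhg8 (1.43), Snhg6 (0.94) and Atf4 (0.83), which were 3 higher of 11, with none lower. Over all genes 9.61% were higher and 8.26% lower for this difference. Per cell 1 of the 11 was called higher, beside 3.04% of all genes. Of 11 messages with AU-rich elements, targets of the Zfp36 proteins, 1 rose and 3 fell in WT pausing (4 and 4 without WT FBS replicate 1), and 4 rose and 3 fell in KO. Lats2 rose in both (0.89 and 1.23), and Jun fell in both (-1.21 and -0.60). Per cell Lats2 had -0.19 in WT and 0.49 in KO, and Jun -2.30 and -1.35; for Gadd45a these were -0.46 and 0.43, and for Snhg8 in KO -0.01.

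Across the 4 comparisons between 2 groups, 39 of the 48 genes (81.2%) were called at least once, beside 83.6% of all tested genes. The 9 that were not are Cnot2, Cnot8, Edc3, Exosc4, Lsm2, Lsm7, Smg1, Smg6 and Xrn1. Of these, Exosc4, Lsm2, Lsm7, Smg1, Smg6 and Xrn1 were called in WT pausing without WT FBS replicate 1, at -0.93, -0.62, -0.52, 0.36, 0.54 and 0.48.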

How the data were processed

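PolyA RNA from 12 samples of E14 mouse embryonic stem cells (WT or Mettl3-KO, FBS or paused, 3 each) was sequenced with ERCC spike-in RNA from a directional library kit, per the labels' protocols. The authors deposited a table of raw counts per gene symbol for 24421 genes and 92 ERCC rows; per the submitters' processing notes the tools included Trim Galore 0.4.0, featureCounts of Subread 1.5.0 and edgeR 3.32.1, and the strand setting is not given in the sources used here. A table of log2 values was not used. Library depth was 10339130 to 39034079 gene counts, and the lowest count of any named member in a library was 58.

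Counts were fitted in edgeR 4.0.16 (R 4.3.3; glmQLFit, robust, glmQLFTest) with 4 group means over all 12 libraries, TMM factors over all genes, and filterByExpr (minimum count 10, total 15), which left 15281 genes; p-values were adjusted over all of them (Benjamini-Hochberg, threshold 0.05). The per-cell scale used ERCC totals with TMM over ERCC rows and assumes that the spike followed the cell number. On simulated counts with 200 changed genes for WT paused against WT FBS (15052 genes), 96% of 2-fold and 100% of 4-fold changes were recovered, with 5.77% of calls false. Every simulated gene had the same dispersion, and apart from the changed genes all groups had the same means. No simulated library stood apart as WT FBS replicate 1 did, so these rates need not hold for the real libraries. Alternatives were ERCC or RLE scaling, DESeq2 1.42.0, no filter, a replicate block, 2-group fits and leaving out each library. Replicates of a group differed by more than counting noise. Positions are from GENCODE vM21 (GRCm38), and promoters from RefSeq (GRCm38.p6).

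The members, the other lists and the tests were chosen with earlier results of these data known, and no list is independent support for its direction. Genes named in full were, in each comparison, up to 4 called members with the lowest p in each direction, every member called against the direction of its class, both genes of 6 paralogous pairs, and members called for the difference of the pausing effects; from other lists, up to 3 called genes per direction. Other members were named by their log2 change. Cnot9 was matched as Rqcd1 and Noct as Ccrn4l.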

Additional observations from a re-analysis of the deposited data

Results flagged for a closer look

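The pausing effect differed between genotypes, by the test of the difference itself (KO minus WT, log2, edgeR with Benjamini-Hochberg adjustment over all genes), for 5 of the 48 genes. For Exosc6 it was 0.8663, made of -0.31 in WT and 0.55 in KO, with paused libraries below every FBS library in WT and above every one in KO. For Dis3 it was 0.7174 (-1.01 in WT and -0.30 in KO), and for Exosc10 it was 0.4441 (-0.31 and 0.13). For Dcp1a it was 0.4306 (-0.17 and 0.26). For Zfp36l2 it was -0.6454 (0.14 and -0.51). Per cell these values were 1.14, 1.00, 0.71, 0.71 and -0.36 for Exosc6, Dis3, Exosc10, Dcp1a and Zfp36l2, and none was called.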

How the results depend on the processing

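With ERCC scaling, 46 (all lower) of the 48 were called in WT pausing, 30 (all lower) in KO pausing, 5 between genotypes in FBS, 4 between genotypes in pausing and 0 for the difference of pausing effects. Under that scaling the sign turned for Cnot4 (-0.79), Dcp1b (-0.33), Dis3l2 (-0.41) and Zfp36l1 (-0.67) in WT pausing, for Dcp1a (-0.49), Exosc6 (-0.19), Dis3l2 (-0.24) and Zfp36l1 (-0.13) in KO pausing, and for Pan3 (0.11), Ddx6 (0.079) and Smg5 (0.10) between the paused groups. A fit of only the 2 groups compared called 5 genes in WT pausing, 30 in KO pausing, 23 between genotypes in FBS and 32 between the paused groups, beside 20.4%, 62.5%, 47.4% and 67.5% of all genes; this fit estimates the spread from those groups alone. Leaving out 1 library at a time gave 11 to 32 calls in WT pausing, 7 to 10 in KO pausing, 23 to 38 between genotypes in FBS, 17 to 19 between the paused groups and 4 to 24 for the difference. Over all genes the shares called in those fits were 26.9% to 58.9%, 32.4% to 36.1%, 50.1% to 68.6%, 42.9% to 45.2% and 11.6% to 41.3%. The highest counts for WT pausing, genotype in FBS and the difference came without WT FBS replicate 1; the cause was not tested. Of 84 calls, 57 held without each library in turn. RLE factors kept 83 of the 84, DESeq2 84 and the fit without a filter 81. With the replicate number as a block, all 84 calls held and the counts were 22, 17, 28, 23 and 7 in the order above; pairing by replicate number ended all 7 calls among the 12 paralogue tests, in a test that allows no p below 0.0312 before adjustment. The counts of the other gene lists without WT FBS replicate 1 were added after seeing the data. Whether the replicate numbers pair the libraries is not settled by these data. The correlations of deviations between libraries of the same number were all positive, from 0.0465 to 0.27. In no comparison did all 3 exceed 0.1. All 48 genes had at least 58 counts in each library, and precision is limited by 3 libraries per group.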
